A study of Rattus norvegicus with 24 samples.

Results

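The interleukin-1 (IL-1) family and its receptors were followed as 9 genes across colon and tumour RNA of Pirc rats. The members were every gene probe whose annotation named Il1a, Il1b, Il1rn, Il1r1, Il1r2, Il1rl1, Il18, Il18bp or Il33, which gave 15 probes for 9 genes among 41012 gene probes and 16160 named genes on the array. The rule reads names and no measured value. Of these, 13 probes and 8 genes passed a filter on dim probes, which asked for a sample signal well above background on at least 5 of 24 arrays. Il1r1 was the member outside it.

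The animals were 10 male (ACIxF344)F1-Pirc rats, all with 1 mutant copy of the tumour suppressor Apc (Apc-Pirc/+), and all tissue was distal colon taken at an age of 97 days. Rats 1, 5, 6, 7 and 9 received dextran sodium sulfate (DSS, molecular weight 500000, 4%), which injures the colonic epithelium, in their drinking water on days 40 to 47 and again on days 54 to 61 of age, and rats 2, 3, 4, 8 and 10 were untreated. The 4 groups were therefore DSS tumours, untreated tumours, DSS normal colon and untreated normal colon, each of 5 rats, on 6, 5, 6 and 7 arrays. Normal colon here is the non-tumour tissue of mutant rats, and no tissue of Apc wild-type rats was compared except as a pool of colon RNA. On each 2-colour array the sample carried Cy3 and was hybridized against that wild-type pool, which carried Cy5. A level below is therefore log2 of sample over pool for 1 probe, and levels of different genes are not compared.

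IL-1α (Il1a) and IL-1β (Il1b) are inflammatory cytokines that bind the same signalling receptor, IL-1R1 (Il1r1), and switch on NF-κB and the release of chemokines. IL-1 receptor antagonist (Il1rn) blocks that receptor, and IL-1R2 (Il1r2) is a decoy that captures IL-1 without signalling. IL-33 (Il33) signals through ST2 (Il1rl1), while IL-18 (Il18), made by the intestinal lining, is held in check by IL-18 binding protein (Il18bp).

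The probes that carried the results are shown next, because each value below belongs to 1 short sequence and not to a whole transcript. They are given 5′ to 3′ as the deposited files list them, in lower case because no stretch is singled out. The probes of Il1a, Il1r2 and Il18 and the second probes of Il1rn and Il1rl1 are whole, and the others are their first 30 bases.
Il1a: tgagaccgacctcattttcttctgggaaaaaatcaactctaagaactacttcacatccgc
Il1b: aagtcaggtctctcagagccataagaaaac
Il1b, second probe: gctgaaaatgaagagtttcatattgtgtgg
Il1rn: ccagagtatgtgttatttgtgctcatggaa
Il1rn, second probe: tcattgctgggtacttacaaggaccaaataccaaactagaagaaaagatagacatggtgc
Il1r2: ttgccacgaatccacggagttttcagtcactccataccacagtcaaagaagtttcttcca
Il1rl1: tttttaattcacctgttgctattcaaatca
Il1rl1, second probe: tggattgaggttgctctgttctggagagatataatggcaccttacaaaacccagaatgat
Il18: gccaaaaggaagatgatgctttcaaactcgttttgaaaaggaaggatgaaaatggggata

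Promoter windows of the 250 bases before the gene start were read from RefSeq's table for rat assembly GRCr8, and 8 of the 9 members had one. Those of Il1a, Il1b and Il1rn are shown because these genes, all on chromosome 3, moved together in the comparisons below. Capitals mark matches, on either strand, to the letters TATAAA, to the AP-1 letters TGANTCA or to the NF-κB consensus.
Il1a, chr3:136990018-136990267, minus strand: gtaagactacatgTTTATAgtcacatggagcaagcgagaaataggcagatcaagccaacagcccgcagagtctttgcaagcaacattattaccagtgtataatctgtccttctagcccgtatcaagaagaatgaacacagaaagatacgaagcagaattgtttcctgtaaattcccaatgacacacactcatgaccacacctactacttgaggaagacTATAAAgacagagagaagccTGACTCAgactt
Il1b, chr3:137036582-137036831, minus strand: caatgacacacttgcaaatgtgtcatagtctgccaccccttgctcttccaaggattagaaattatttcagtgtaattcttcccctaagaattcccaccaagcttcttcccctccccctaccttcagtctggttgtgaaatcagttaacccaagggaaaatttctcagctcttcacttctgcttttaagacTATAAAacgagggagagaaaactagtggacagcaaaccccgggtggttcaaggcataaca
Il1rn, chr3:27520072-27520321, plus strand: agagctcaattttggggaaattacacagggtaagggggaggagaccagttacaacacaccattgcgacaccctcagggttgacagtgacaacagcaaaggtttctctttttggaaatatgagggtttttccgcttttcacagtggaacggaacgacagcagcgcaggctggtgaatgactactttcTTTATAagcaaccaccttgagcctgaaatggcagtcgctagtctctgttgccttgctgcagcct
All 3 windows held TATAAA on a strand, which 12.9% of the 33469 windows in that table hold. The Il1a window also held the AP-1 letters, found in 6.34% of windows, and none of the 3 held the NF-κB consensus, found in 3.54%. Among the other members, TATAAA was matched in the Il1rl1 window and in an Il33 window, so it is not particular to the genes shown. The NF-κB consensus was matched in the Il1r1 window, and the Il18 and Il18bp windows matched none of the 3 motifs. A match describes the letters and is not evidence of a bound site.

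Some arrays stand apart and are named before the values. The share of gene probes well above background was 47.6% to 70.5% on 21 arrays and 86.9% to 95.2% on 3 arrays of raised signal, which came from the tumour of DSS rat 9 and the normal colon of untreated rats 2 (its first array) and 4. The normal colon arrays of DSS rats 1 and 5 correlated at 0.97 over all probes, about as repeat arrays of 1 sample did (0.812 to 0.968), so the main results of normal colon are also given without rat 5. With 5 rats in a group, the number of arrays limits the precision throughout. The labels number the rats but say no more about litter or cage.

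In untreated rats, tumours differed from normal colon in 6 of the 8 members tested: Il1a, Il1b, Il1rn, Il1r2 and Il1rl1 were higher and Il18 was lower. Il1rl1 passed the filter only through the other groups, being well above background on 0 of 7 untreated normal arrays. Its call therefore adds no support to the count. Over all 26653 features 18% were called at an adjusted p under 0.05, 8.57% as higher and 9.42% as lower. The median log2 change of the 8 members was 1.78, against -0.00 over all features. The groups did not overlap in any of the 6 genes, which held for 12.4% of all features and for 60.2% of those called.

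In DSS rats, tumours differed from the normal colon of DSS rats in 1 of the 8 members, Il18, which was lower. Over all features 7.59% were called, 3.73% as higher and 3.86% as lower, and the members' median change was -0.28, against 0.02 over all features.

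DSS normal colon differed from untreated normal colon in 5 of the 8 members: Il1a, Il1b, Il1rn and Il1r2 were higher and Il18 was lower. Over all features 7.24% were called, 3.91% as higher and 3.33% as lower, and the members' median change was 1.16, against -0.01 over all features. The 4 genes that were higher here are also among the 5 that were higher in untreated tumours, but both comparisons use the same untreated normal colon. They are therefore not independent of each other, and the values are given side by side.

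DSS tumours did not differ from untreated tumours in any of the 8 members, and limma called 0 of 26653 features (0%) in that comparison. Its smallest adjusted p was 0.167, while 1673 features (6.28%) had an unadjusted p under 0.05. The DSS effect in tumours minus that in normal colon, a test of the difference between the 2 DSS effects, was negative for 4 of the 8 members, Il1a, Il1b, Il1rn and Il1r2. Over all features 2.5% were called in this test, 0.829% as positive and 1.67% as negative.

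The other 2 contrasts cross tissue and treatment. DSS tumours differed from untreated normal colon in 6 of the 8 members, with Il1a, Il1b, Il1rn, Il1r2 and Il1rl1 higher and Il18 lower, where 17.2% of all features were called (8.51% as higher and 8.72% as lower). Here too the Il1rl1 call adds no support, since the gene passed the filter without any array of untreated normal colon. Il1a was higher by 2.53, Il1b by 1.75, Il1rn by 1.59 and Il1r2 by 1.13, and Il18 was lower by -2.76. Untreated tumours differed from DSS normal colon in 1 of the 8, Il18, which was lower by -1.24 ± 0.26 (SE, adjusted p = 0.00763), where 5.93% of all features were called (2.8% as higher and 3.13% as lower).

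**Figure D1:**
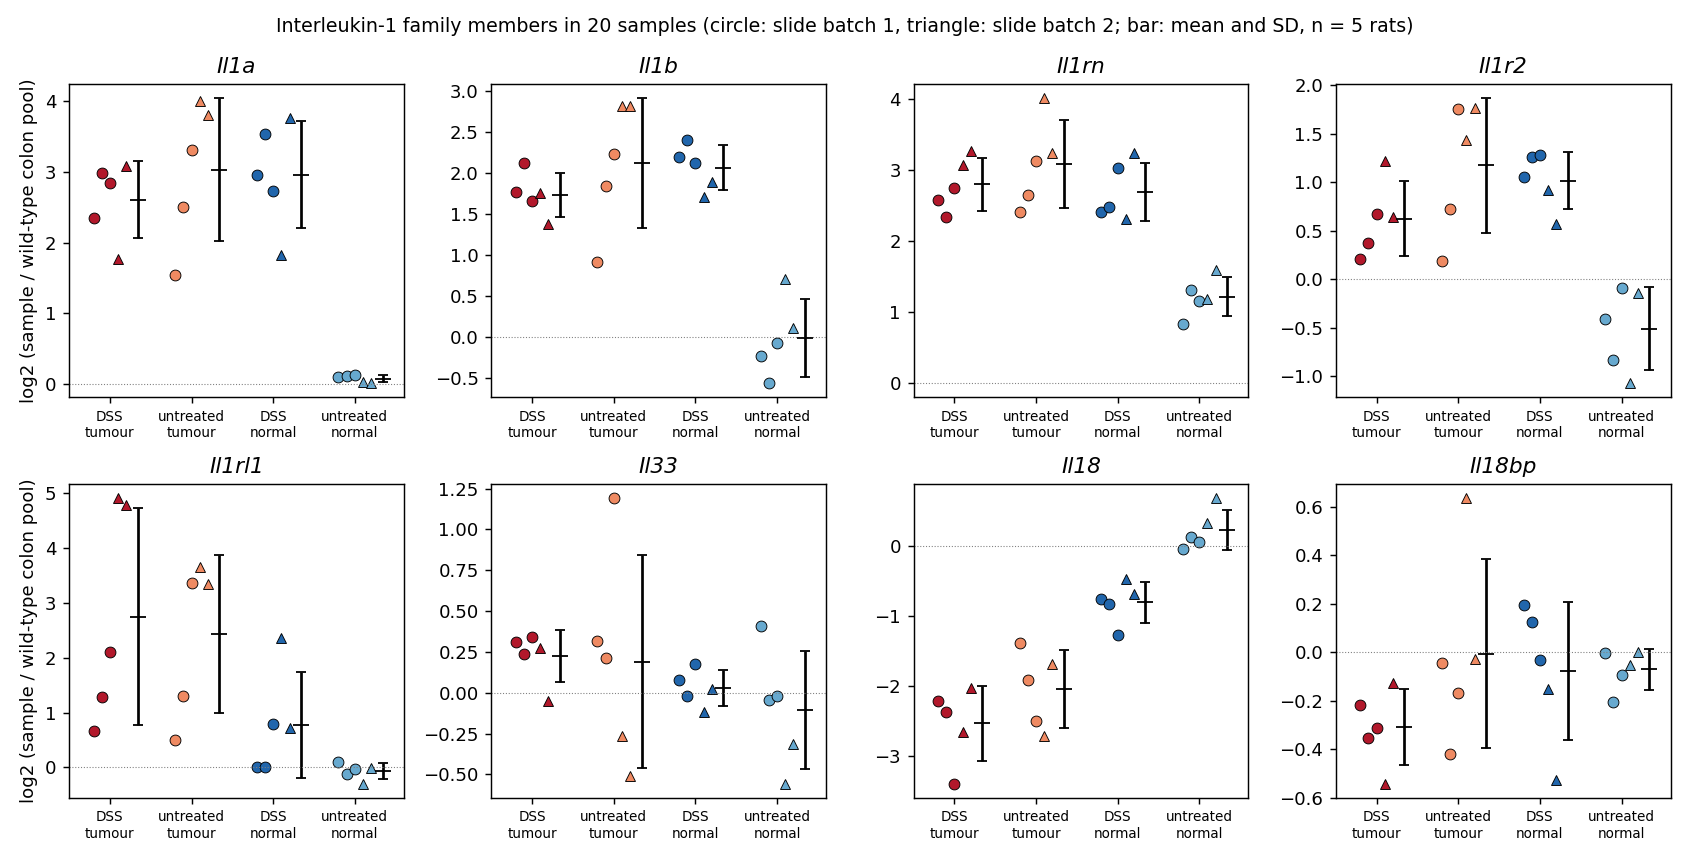
Level of each of the 8 tested members, as log2 of sample over wild-type pool (vertical axis), in every rat of the 4 groups (horizontal axis). Circles are rats of slide batch 1, triangles rats of slide batch 2, and bars the mean ± SD of 5 rats. For Il1a, Il1b, Il1rn and Il1r2 the untreated normal colon lies below every other sample, and for Il18 both tumour groups lie below all normal colon.

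Il1a, the IL-1α ligand, was far above the pool in every group except untreated normal colon. Its log2 level was 2.36, 2.99, 2.84, 1.78 and 3.08 in tumours of DSS rats 1, 5, 6, 7 and 9, and 1.54, 2.51, 3.31, 4.01 and 3.80 in tumours of untreated rats 2, 3, 4, 8 and 10. It was 2.96, 3.54, 2.73, 1.83 and 3.77 in DSS normal colon and 0.11, 0.11, 0.12, 0.04 and 0.02 in untreated normal colon, with rats in the same order here and below. The 5 untreated normal samples were thus nearly equal to each other and to the pool, and the other 15 all lay above them without separating from one another.

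Untreated tumours exceeded untreated normal colon in Il1a by 2.96 ± 0.41 on the log2 scale (SE, n = 5 rats each, 95% interval 2.09 to 3.82, adjusted p = 0.000102), a 7.76-fold difference. DSS normal colon exceeded untreated normal colon by 2.89 ± 0.41 (7.39-fold, adjusted p = 0.000253). Between DSS tumours and DSS normal colon the difference was -0.36 (95% interval -1.22 to 0.51, adjusted p = 0.70), and between DSS and untreated tumours -0.43 (-1.29 to 0.44), intervals that leave room for a change of either sign. The difference between the DSS effects was -3.31 ± 0.58 (adjusted p = 0.00397). The probe's sample signal was 38 to 282 units in untreated normal colon, against 640 to 9590 in the other groups, and the offset of 50 added to each signal draws ratios that dim towards 0. Because RNA was taken from whole tissue, here as for every member, more cells of a type and more RNA per cell cannot be told apart.

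Il1b, the IL-1β ligand, followed the same order of groups. Its log2 level was 1.76, 2.13, 1.65, 1.76 and 1.38 in DSS tumours and 0.92, 1.84, 2.23, 2.82 and 2.82 in untreated tumours. It was 2.20, 2.41, 2.13, 1.71 and 1.89 in DSS normal colon and -0.24, -0.57, -0.08, 0.71 and 0.11 in untreated normal colon. The highest untreated normal sample, rat 8, was still below the lowest tumour, that of rat 2, and the remaining groups overlapped.

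Il1b was higher in untreated tumours than in untreated normal colon by 2.14 ± 0.30 (SE, 95% interval 1.51 to 2.76, 4.40-fold, adjusted p = 0.000107). It was higher in DSS than in untreated normal colon by 2.08 ± 0.30 (4.22-fold, adjusted p = 0.000279). The difference was -0.33 between DSS tumours and DSS normal colon (adjusted p = 0.60) and -0.39 between DSS and untreated tumours (95% interval -1.02 to 0.24). The DSS effects differed by -2.47 ± 0.42 (adjusted p = 0.00329).

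A second Il1b probe, spotted 10 times on the array, gave larger differences on samples ordered alike (r = 0.991 between the probes over 20 samples). It averaged 2.85 ± 0.35 in DSS tumours, 3.38 ± 1.48 in untreated tumours, 3.18 ± 0.60 in DSS normal colon and 0.03 ± 0.58 in untreated normal colon (SD, n = 5 each). Its difference was 3.35 ± 0.51 between untreated tumours and untreated normal colon (10.2-fold, adjusted p = 0.00023) and 3.15 ± 0.51 between DSS and untreated normal colon (8.87-fold, adjusted p = 0.000903). Both probes passed in the same comparisons, so the size of the Il1b change depends on the probe and the call does not.

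Il1rn, the antagonist that competes with both ligands for their receptor, was above the pool in all 20 samples and lowest in untreated normal colon. Its log2 level was 2.58, 2.34, 2.76, 3.07 and 3.26 in DSS tumours and 2.41, 2.65, 3.12, 4.02 and 3.24 in untreated tumours. It was 2.41, 2.48, 3.03, 2.31 and 3.24 in DSS normal colon and 0.83, 1.32, 1.16, 1.18 and 1.59 in untreated normal colon. The 5 untreated normal samples lay below all others.

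Il1rn was higher in untreated tumours than in untreated normal colon by 1.87 ± 0.26 (SE, 3.66-fold, adjusted p = 0.000109) and higher in DSS than in untreated normal colon by 1.48 ± 0.26 (2.79-fold, adjusted p = 0.00183). The DSS effects differed by -1.76 ± 0.37 (adjusted p = 0.0143), a call lost without rat 4 (adjusted p = 0.053). In DSS rats the difference between tumour and normal colon was 0.11 (adjusted p = 0.873). A second, dimmer Il1rn probe (r = 0.786 with the first over 20 samples) gave 1.18 between untreated tumours and untreated normal colon (adjusted p = 0.0122), with overlapping groups, and did not pass between DSS and untreated normal colon (0.95, adjusted p = 0.0728) or for the difference of the DSS effects (-1.49, adjusted p = 0.0849).

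Il1r2, the decoy receptor, was below the pool in untreated normal colon and above it elsewhere. Its log2 level was 0.21, 0.37, 0.67, 1.22 and 0.64 in DSS tumours and 0.19, 0.72, 1.75, 1.44 and 1.77 in untreated tumours. It was 1.05, 1.26, 1.27, 0.92 and 0.57 in DSS normal colon and -0.42, -0.83, -0.10, -1.07 and -0.15 in untreated normal colon. All 15 samples of the first 3 groups were above 0 and all 5 untreated normal samples below it.

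Il1r2 was higher in untreated tumours than in untreated normal colon by 1.69 ± 0.28 (SE, 3.22-fold, adjusted p = 5e-04) and higher in DSS than in untreated normal colon by 1.53 ± 0.28 (2.88-fold, adjusted p = 0.00258). With the scanner's own processed signals the second value was 2.35, over 1.5 times as large. The DSS effects differed by -2.08 ± 0.40 (adjusted p = 0.00784). Between DSS and untreated tumours the difference was -0.55 (95% interval -1.15 to 0.04).

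Il1r1, the receptor through which both ligands signal, could not be measured on most arrays. Both of its probes were well above background on the 3 arrays of raised signal and on 0 of the 21 others, so the gene entered no test. Its log2 levels sat near the pool in every group (group means of -0.13 to -0.03 over the 2 probes), which at this signal is not a measurement of equal expression. Its co-receptor Il1rap, which IL-1R1 needs in order to signal, was measured and was higher in untreated tumours than in untreated normal colon by 1.25 ± 0.23 (SE, adjusted p = 0.000865).

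**Figure D2:**
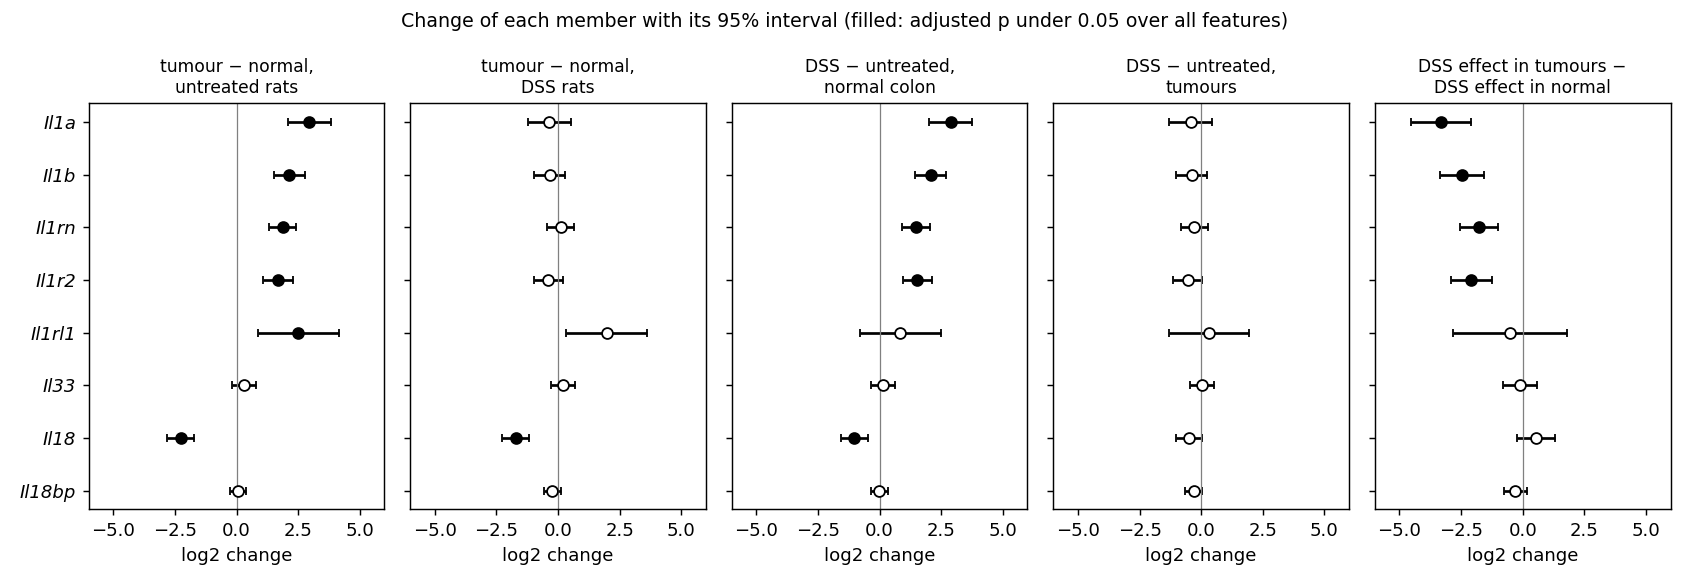
Log2 change of each of the 8 tested members (rows) in 5 comparisons (panels), with 95% intervals from limma; filled symbols have an adjusted p under 0.05. Il1a, Il1b, Il1rn and Il1r2 are to the right of 0 in untreated tumours against untreated normal colon and in DSS against untreated normal colon, Il18 is to the left in every comparison between tumour and normal colon, and no symbol is filled between DSS and untreated tumours.

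The same 4 genes can be read within each rat, since tumour and normal colon came from the same animals. Tumour exceeded the rat's own normal colon in 5 of 5 untreated rats for Il1a (by 1.43 to 3.97), for Il1b (1.15 to 2.71), for Il1rn (1.33 to 2.84) and for Il1r2 (0.60 to 2.51). In DSS rats it did so in 1 of 5 rats for Il1a, 1 of 5 for Il1b, 3 of 5 for Il1rn and 2 of 5 for Il1r2. The ordering of the 4 group means was untreated tumour, DSS normal colon, DSS tumour and untreated normal colon for Il1a, Il1b and Il1r2. Of the steps between neighbours in that order, the one down to untreated normal colon passed the test (adjusted p = 0.000295 for Il1a, 0.000463 for Il1b and 0.00891 for Il1r2), and the earlier steps did not. For Il1rn the order was untreated tumour, DSS tumour, DSS normal colon and untreated normal colon, again with a difference in the last step (adjusted p = 0.00183).

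**Figure D3:**
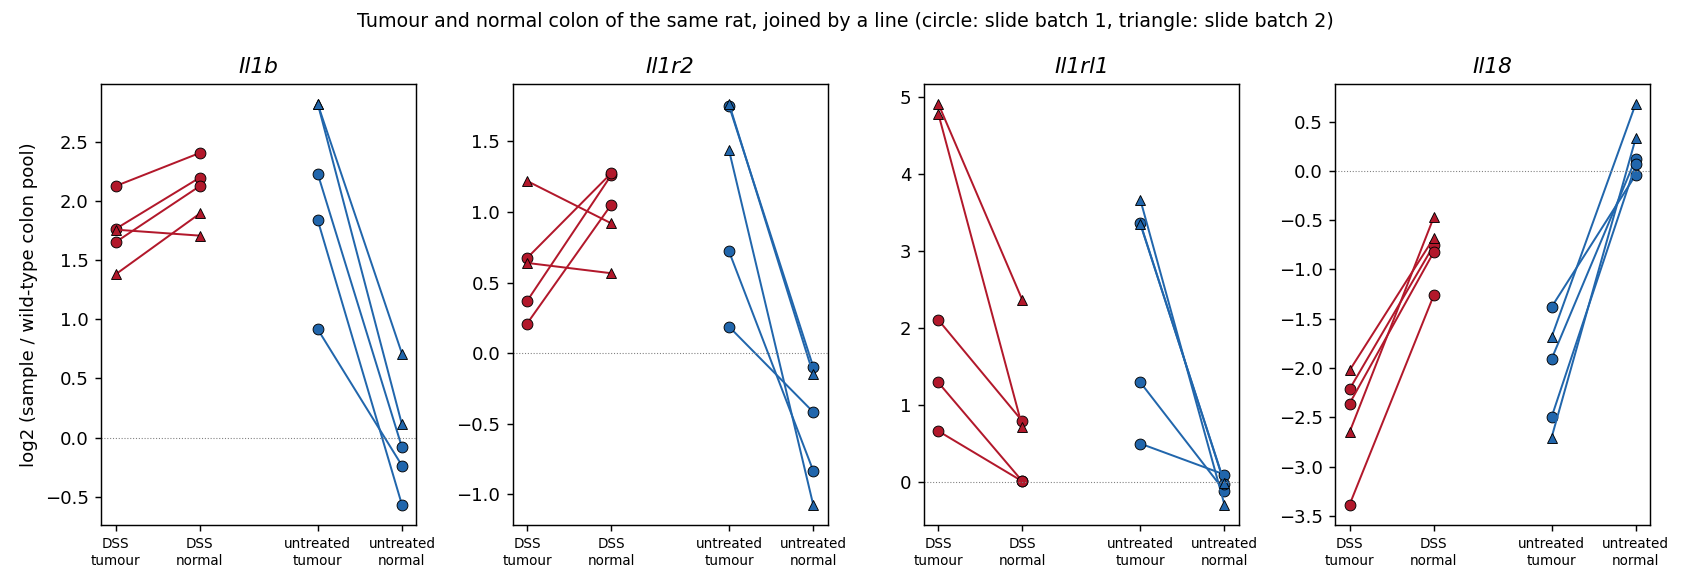
Levels of Il1b, Il1r2, Il1rl1 and Il18 (log2 of sample over pool, vertical axis) in the tumour of each rat joined to its own normal colon, DSS rats on the left and untreated rats on the right of each panel. Every untreated rat has the tumour above its normal colon for Il1b and Il1r2, DSS rats run both ways, and the Il18 lines of all 10 rats have the tumour end lower.

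Slides fell into 2 batches by the slide numbers in the file headers, with 3 rats of each group in batch 1 and 2 rats in batch 2. Between untreated tumours and untreated normal colon, Il1a differed by 2.34 in batch 1 and 3.88 in batch 2, Il1b by 1.96 and 2.41, Il1rn by 1.63 and 2.24, Il1r2 by 1.33 and 2.21, and Il18 by -1.98 and -2.70, each with an adjusted p under 0.05 in both batches. Between DSS and untreated normal colon, batch 1 and batch 2 gave 2.96 and 2.77 for Il1a, 2.54 and 1.39 for Il1b, 1.54 and 1.39 for Il1rn, 1.64 and 1.35 for Il1r2 and -1.0 and -1.08 for Il18. There the first 4 genes passed in batch 1, Il18 did not (adjusted p = 0.072), and no member passed with the 2 rats a group of batch 2. The differences between DSS effects were -2.69 and -4.25 for Il1a, -2.35 and -2.64 for Il1b, -1.71 and -1.85 for Il1rn and -2.11 and -2.03 for Il1r2. Of these, Il1r2 missed the threshold in batch 1 (adjusted p = 0.054), and none passed in batch 2. Without the normal colon of DSS rat 5, Il1a, Il1b, Il1rn and Il1r2 differed between DSS and untreated normal colon by 2.74, 1.99, 1.53 and 1.47 and Il18 by -1.03, all still called.

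Il1rl1 encodes ST2, the receptor of IL-33 on mast cells, regulatory T cells and type 2 innate lymphoid cells, and its transcripts also give a soluble form that captures IL-33. Its log2 level was 0.66, 1.29, 2.11, 4.91 and 4.78 in DSS tumours and 0.50, 1.30, 3.36, 3.67 and 3.35 in untreated tumours. It was 0.01, 0.01, 0.79, 2.36 and 0.71 in DSS normal colon and 0.10, -0.11, -0.02, -0.29 and -0.01 in untreated normal colon. Both tumour groups were above untreated normal colon in every sample and spread widely. The probe was well above background on 6 of 6 DSS tumour arrays, 5 of 5 untreated tumour arrays, 4 of 6 DSS normal arrays and 0 of 7 untreated normal arrays. It thus passed the filter without any array of untreated normal colon.

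The log2 difference of Il1rl1 between untreated tumours and untreated normal colon was 2.50 ± 0.78 (SE, 95% interval 0.86 to 4.14, adjusted p = 0.0319). Since untreated normal colon gives only a bound, a lower limit was also set in the sample channel alone, against the dimmest signals that were well above background. On that scale the mean of untreated tumours was at least 5.77-fold above that of untreated normal colon, where the measured signals gave 5.88-fold. The mean of DSS tumours was at least 6.68-fold above it, where the measured signals gave 6.8-fold (adjusted p = 0.0169 for the log ratio). These limits concern the mean signals of these samples and carry no sampling error, unlike the interval above. Within untreated rats the log2 excess of tumour over own normal colon ran from 0.40 to 3.96. In DSS rats, tumour exceeded the rat's own normal colon in 5 of 5 rats, by 0.65 to 4.07, but the group difference of 1.98 ± 0.78 did not pass (95% interval 0.34 to 3.61, adjusted p = 0.149). No step between neighbouring group means passed.

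The Il1rl1 calls rest on few rats. Between untreated tumours and untreated normal colon the adjusted p reached up to 0.155 when rat 3, 4, 8 or 10 was left out, the difference was 1.73 in slide batch 1 (adjusted p = 0.0953) and 3.66 in batch 2 (adjusted p = 0.0106), and it was 6.14 with the scanner's processed signals. In DSS rats the tumour difference was 1.08 in batch 1 and 3.31 in batch 2, and with the rat as a block it passed (adjusted p = 0.0447). A second Il1rl1 probe, described in the files as Fit-1M, the membrane-bound form, had group means of 0.09 in DSS tumours, 0.10 in untreated tumours, 0.03 in DSS normal colon and 0.00 in untreated normal colon. It was well above background on the 3 arrays of raised signal and on 5 of the 21 others, so it bears little on the level of that form.

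Il33, the ligand of ST2 and a nuclear alarm protein of barrier cells, differed in no comparison by its brighter probe. Its level averaged 0.22 ± 0.16 in DSS tumours, 0.19 ± 0.65 in untreated tumours, 0.03 ± 0.11 in DSS normal colon and -0.10 ± 0.36 in untreated normal colon (SD, n = 5 each), with overlapping groups. A second probe (r = 0.52 with the first over 20 samples) was higher in untreated tumours than in untreated normal colon by 0.52 ± 0.16 (SE, adjusted p = 0.0307), again with overlap. The 2 probes thus disagree on whether the threshold was passed.

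Il18, the cytokine that intestinal epithelium makes without prior stimulation, was the member that ran opposite to the ligands above. Its log2 level was -2.21, -2.36, -3.39, -2.65 and -2.02 in DSS tumours and -1.38, -1.91, -2.50, -2.70 and -1.69 in untreated tumours. It was -0.76, -0.82, -1.26, -0.47 and -0.68 in DSS normal colon and -0.04, 0.12, 0.06, 0.33 and 0.68 in untreated normal colon. Every tumour lay below every normal sample, and the 2 groups of normal colon did not overlap either.

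Il18 fell by 2.27 on the log2 scale in untreated tumours relative to untreated normal colon (SE 0.26, 4.81-fold, adjusted p = 1.69e-05). In DSS rats it fell by 1.73 in tumours relative to DSS normal colon (SE 0.26, 3.31-fold, adjusted p = 0.00039). Each of the 10 rats had the tumour lower than its own normal colon, by between -2.18 and -1.34 in DSS rats and between -3.04 and -1.34 in untreated rats. In slide batches 1 and 2 the DSS rats gave -1.71 (adjusted p = 0.0103) and -1.76 (adjusted p = 0.125).

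Il18 was also lower in DSS than in untreated normal colon, by -1.03 ± 0.26 (SE, 2.04-fold, adjusted p = 0.0214), a call lost without rat 5 (adjusted p = 0.0551). The order of its group means ran untreated normal colon, DSS normal colon, untreated tumour, DSS tumour. The first step (adjusted p = 0.0214) and the next (adjusted p = 0.00763) passed, and the last, between the tumour groups, did not. The difference of the DSS effects was 0.54 (adjusted p = 0.536). A second Il18 probe (r = 0.955 with the first) gave smaller values, -1.24 in untreated tumours (adjusted p = 0.000345), -0.64 in DSS rats (adjusted p = 0.0618, not passed) and -0.68 in normal colon (adjusted p = 0.0455).

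Il18bp, the soluble inhibitor of IL-18, averaged -0.31 ± 0.16 in DSS tumours, -0.01 ± 0.39 in untreated tumours, -0.08 ± 0.28 in DSS normal colon and -0.07 ± 0.08 in untreated normal colon (SD, n = 5 each). Its groups overlapped, and it passed in no comparison. Its difference was 0.07 between untreated tumours and untreated normal colon, -0.23 between DSS tumours and DSS normal colon and -0.01 between DSS and untreated normal colon.

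The genes that follow IL-1 in the pathway were read from lists. Of 25 targets that IL-1 induces, 24 were on the array and 20 were tested. In untreated tumours 10 of the 20 were higher than in untreated normal colon and 0 lower, with a median change of 0.84, against 8.57% of all features called as higher and a median of -0.00. In DSS normal colon 6 were higher than in untreated normal colon (median 0.61), where 3.91% of all features were. In DSS tumours 1 was higher than in DSS normal colon (median -0.07), where 3.73% of all features were, and between the tumour groups 0 were called. Averaged over the 20 targets, the log2 level was 0.71 to 1.24 in DSS tumours, 0.28 to 1.82 in untreated tumours, 0.87 to 1.20 in DSS normal colon and -0.31 to -0.05 in untreated normal colon.

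Chemokines that draw neutrophils led this list. Cxcl1 was higher in untreated tumours than in untreated normal colon by 3.71 ± 0.56 (SE, 13.1-fold, adjusted p = 0.000205) and in DSS than in untreated normal colon by 4.25 ± 0.56 (19-fold, adjusted p = 0.000124). Cxcl3 was higher by 2.83 ± 0.33 and 3.16 ± 0.33 in the same comparisons, Cxcl6 by 2.24 ± 0.38 in untreated tumours, and Cxcl2 by 4.88 ± 0.74 in DSS normal colon. Ccl20, which draws dendritic cells and lymphocytes, was the target that was higher in DSS tumours than in DSS normal colon, by 1.74 ± 0.40 (adjusted p = 0.0113), a call lost without rat 6 or rat 9 (adjusted p up to 0.0608). The difference of DSS effects passed as negative for 5 of the 20 targets, namely Cxcl3 (-3.60), Cxcl2 (-5.52), Cxcl1 (-4.00) and, named after their values were seen, Cxcl6 (-2.52) and the adhesion molecule Icam1 (-1.12). Leaving out a single rat ended the Cxcl6 call for 4 of the 10 rats and the Icam1 call for 8, and the call of Cxcl1, Cxcl2 or Cxcl3 for 0.

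**Figure D4:**
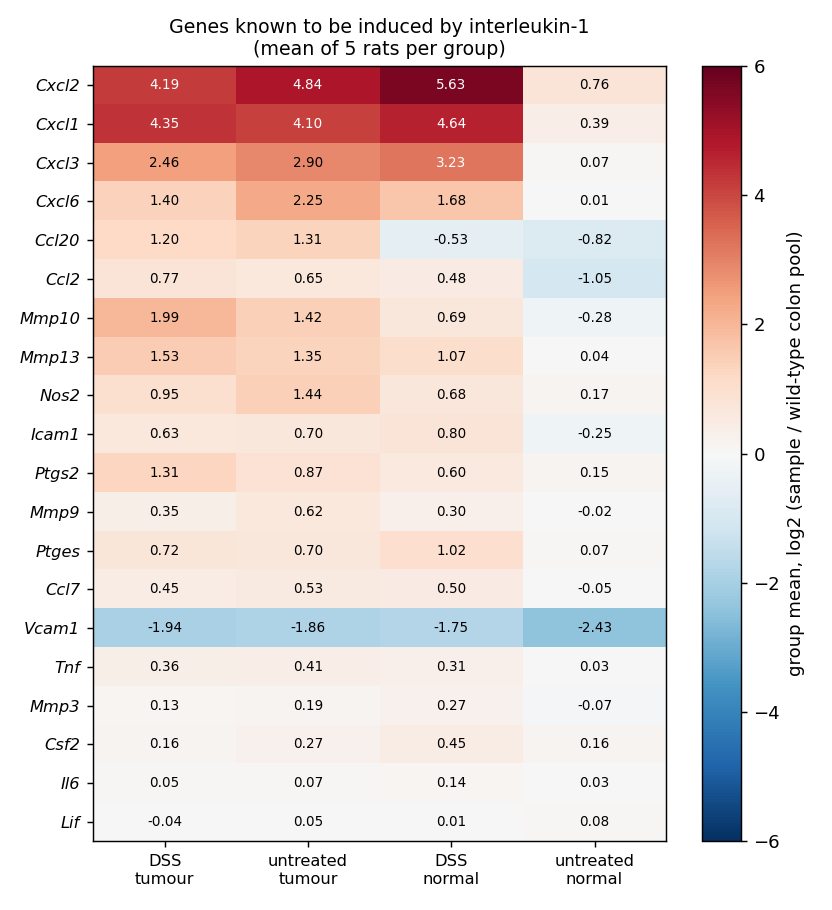
Group means of the 20 tested IL-1 targets (rows) as log2 of sample over pool (colour), in DSS tumours, untreated tumours, DSS normal colon and untreated normal colon (columns). The chemokines Cxcl1, Cxcl2 and Cxcl3 stand out in the first 3 columns against untreated normal colon.

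The machinery that processes pro-IL-1β and pro-IL-18 was mixed in direction. Of its 14 tested genes (17 listed), 3 were higher and 2 lower in untreated tumours than in untreated normal colon, 1 was lower in DSS tumours than in DSS normal colon, 0 differed between DSS and untreated normal colon and 0 between the tumour groups. Of all features 18% were called in untreated rats and 7.59% in DSS rats, so the 1 call of 14 in DSS rats is near that share. The 5 calls in untreated rats were 2 without rat 4 and 7 without rat 2. Pycard, the adaptor of the inflammasome, was lower in untreated tumours by -1.32 ± 0.24 (SE, adjusted p = 0.000941). Capn2, the calpain subunit tied to release of IL-1α, was higher by 0.81 ± 0.19 and Casp8, another protease able to cleave pro-IL-1β, by 0.72 ± 0.20. The remaining calls there, named after their values were seen, were Nlrp3, the inflammasome sensor, higher by 0.25, and Casp1, lower by -0.63. The calls of Casp8, Nlrp3 and Casp1 in untreated tumours were each lost without rat 4, while those of Pycard and Capn2 were kept with each of the 10 rats left out. Casp1, the protease that cleaves both pro-cytokines, was lower in DSS tumours than in DSS normal colon by -1.42 ± 0.18 (adjusted p = 6.9e-05). The list's median change was 0.14 in untreated rats and -0.08 in DSS rats.

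Of 19 tested genes (25 listed) that carry the receptor's signal to NF-κB, 2 were higher in untreated tumours than in untreated normal colon, Nfkbiz by 1.06 ± 0.20 and Nfkb1 by 0.76 ± 0.16 (SE). That count is near the 8.57% of all features called as higher there, and the list's median change was -0.07. Nfkbiz, an IL-1-induced partner of NF-κB, was also higher in DSS than in untreated normal colon, by 0.79 ± 0.20, a call lost without rat 1 or rat 3 (adjusted p up to 0.0712), and the list had 3 calls in that comparison without rat 9. Of 8 tested further ligands and receptors of the family (12 listed), Il1rap was the 1 called in untreated tumours. Il36rn, the antagonist of the IL-36 receptor, was higher in DSS than in untreated normal colon by 0.67 ± 0.16 and lower in DSS tumours than in DSS normal colon by -0.76 ± 0.16, and Il36b, an IL-36 ligand, by 0.31 and -0.29 in the same comparisons. In normal colon the Il36b call was lost without rat 4 (adjusted p = 0.052) and the Il36rn call without rat 2, 4 or 5 (adjusted p up to 0.0612), and in DSS rats the Il36b call was lost without rat 5, 7 or 9 (adjusted p up to 0.07).

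Markers of some other cell types also differed between the groups. In untreated tumours and in DSS normal colon, each against untreated normal colon, 0 of 8 tested mast cell markers were called. For T and innate lymphoid cells 1 and 0 of 11 were called, and for endothelium 1 and 0 of 9. Of all features 18% and 7.24% were called there. The 9 tested neutrophil markers (of 12 listed) averaged 0.56 to 0.83 in DSS tumours, 0.68 to 1.49 in untreated tumours, 0.55 to 0.91 in DSS normal colon and -0.21 to 0.12 in untreated normal colon. Of them, 5 were higher in untreated tumours and 2 in DSS normal colon than in untreated normal colon, where 8.57% and 3.91% of all features were called as higher. S100a8 and S100a9, abundant neutrophil proteins, were higher by 3.62 and 3.90 in untreated tumours and by 3.15 and 2.68 in DSS normal colon. Camp, a granule peptide, was higher in untreated tumours by 2.0. The neutrophil granule genes Mpo, Ngp and Ltf and the receptor Fpr1 were not above background on most arrays of any group. Csf3r and Mmp8, also called in untreated tumours, were not above it on most untreated normal arrays. Their calls therefore add no support to that count. The 11 tested macrophage markers averaged 0.15 to 0.53 in DSS tumours, 0.09 to 0.74 in untreated tumours, -0.02 to 0.19 in DSS normal colon and -0.50 to -0.16 in untreated normal colon, with 7 higher in untreated tumours than in untreated normal colon and 2, Lyz2 (2.29) and Cd68 (0.95), higher in DSS than in untreated normal colon. The Cd68 call there was lost when any 1 of 9 rats was left out (adjusted p up to 0.117). In untreated tumours the calls of Adgre1, C1qa, C1qb, C1qc, Cd68 and Msr1 were each lost without rat 8. That of Lyz2 was kept with each rat left out. Msr1 was not above background on most arrays of either normal colon group, so its call adds no support.

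The 10 tested fibroblast and smooth muscle markers averaged -1.59 to -0.63 in DSS tumours, -2.15 to -0.73 in untreated tumours, -2.23 to -1.61 in DSS normal colon and -2.81 to -1.44 in untreated normal colon. Of them 4 were higher and 1 lower in untreated tumours than in untreated normal colon (median 0.83). There 8.57% of all features were called as higher and 9.42% as lower. Dcn, a matrix proteoglycan, led at 3.03, and the call of Col1a1 was lost without rat 4 or 8. In DSS tumours 4 were higher than in untreated normal colon, where 8.51% of all features were called as higher. Over 20 samples that share the 4 group means, Il1rl1 correlated at 0.72 with the mean of these stromal markers. It gave 0.811 with macrophage, 0.638 with neutrophil, 0.628 with endothelial and 0.535 with T and innate lymphoid cell markers. With colonic epithelial, mast cell and squamous markers it gave -0.756, -0.275 and -0.214. The part of neutrophil, macrophage, stromal and these other markers in the results was not tested.

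The 12 tested markers of squamous epithelium averaged 0.16 to 0.54 in DSS tumours, 0.26 to 0.82 in untreated tumours, 2.89 to 4.45 in DSS normal colon and -0.15 to 1.97 in untreated normal colon. All 12 were higher in DSS than in untreated normal colon, where 3.91% of all features were called as higher. Of the 12, 10 were lower in DSS tumours than in DSS normal colon, where 3.86% of all features were called as lower. Krt10 and Dsg3 were not above background on most arrays of untreated normal colon. Krt5, Krt10, Krt4 and Krtdap were not above it on most DSS tumour arrays. Each of these genes was at background on 1 side of that comparison, so the call adds no support to its count. The call of Dsg3 in normal colon (0.28, adjusted p = 0.0389) was lost when any 1 of 9 rats was left out. The untreated normal sample at 1.97, that of rat 8, had an Il1a level of 0.04, an Il1r2 level of -1.07 and an Il1b level of 0.71. The part of squamous markers in the higher Il1a and IL-36 genes of DSS normal colon was not tested.

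The 14 tested markers of colonic epithelium averaged -1.85 to -1.25 in DSS tumours, -1.98 to -0.56 in untreated tumours, -0.72 to -0.22 in DSS normal colon and -0.46 to -0.06 in untreated normal colon. Of them 6 were lower in untreated tumours and 5 in DSS tumours than in the normal colon of the same treatment. In these comparisons 9.42% and 3.86% of all features were called as lower. Tff3, a goblet cell peptide, was lower by -2.26 and -2.39. In untreated tumours the Krt20 call was lost without rat 8 or 10 and that of Car4 without rat 3 or 10. The Cdx2 call was lost without rat 3, 4, 8 or 10. The other calls of this list in these comparisons were kept with each rat left out. Between DSS and untreated normal colon 0 of 14 were called. The median change of the list in that comparison was -0.07, with genes on either side of 0. The part of colonic epithelial markers in the lower Il18 of tumours and of DSS normal colon was not tested.

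**Figure D5:**
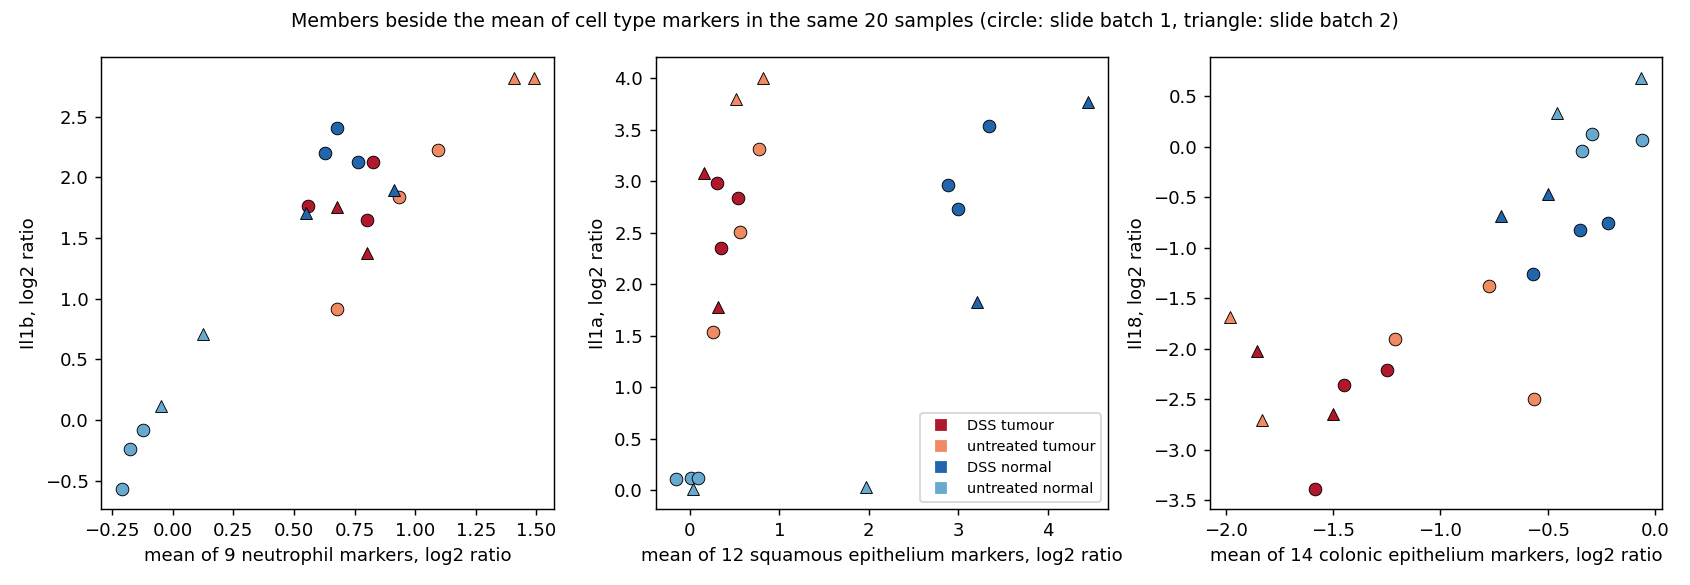
Level of a member in each of 20 samples (log2 of sample over pool, vertical axis) against the mean of a marker list in that sample (same scale, horizontal axis): Il1b against 9 neutrophil markers, Il1a against 12 squamous markers and Il18 against 14 colonic epithelial markers. Untreated normal samples sit at the low end for Il1b, and DSS normal colon stands far right in the squamous panel at Il1a levels that tumours share. Every tumour lies below every normal sample in Il18. Over the 20 samples, which share group means, Il1b correlated at 0.922 with the neutrophil mean and Il1a at 0.381 with the squamous mean. Il18 correlated at 0.806 with the epithelial mean, and at 0.881 after each slide batch's mean was removed. Single tumours departed from that order. Among tumours the lowest epithelial mean (-1.98, untreated rat 10) has an Il18 level of -1.69. The lowest Il18 level (-3.39, DSS rat 6) has an epithelial mean of -1.58.

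The members differed in which genes on the array had the most similar pattern, measured as Pearson's r over 20 samples that share a group structure and the same pool. For Il1a these were Cxcl1 (0.968), Cxcl3 (0.966) and Wwtr1 (0.964), and for Il1b they were Tlr2 (0.944), Lyz2 (0.942) and S100a8 (0.94). Il1rn was close to Psmd11 (0.936) and Tnfrsf1b (0.934), and Il1r2 to Col18a1 (0.917), Lrg1 (0.912) and Icam1 (0.903). Il1rl1 was closest to Bmp4 (0.926), Procr (0.918) and C1qc (0.908), and Il18 to Sult1c2a (0.962), Ccl28 (0.957) and Rap1a (0.957). For Il18bp (Pla1a, Ly96 and Nt5e, 0.701 to 0.737) and Il33 (Trip12, Ctnnb1 and Mvp, 0.816 to 0.848) the closest genes were less similar. After each slide batch's mean was removed, the values for Il1a were 0.97, 0.974 and 0.971 and those for Il33 0.741 to 0.75.

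Among the members themselves, Il1a and Il1b were the most alike pair (r = 0.924 over 20 samples, 0.636 after group means were removed). Il1a with Il1rn gave 0.894 (0.572 after group means were removed) and Il1b with Il1r2 gave 0.861 (0.488). Il18 ran opposite to all of these, at -0.689 with Il1a and -0.665 with Il1b, and within groups these were -0.347 and -0.299. The pairwise values describe 20 samples that share 4 group means and carry no test.

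All calls above rest on normalization within each array by loess. With each array centred on its median instead, the called differences kept their sign, but the calls of Il1rn (adjusted p = 0.0591) and Il1rl1 (adjusted p = 0.0816) in untreated tumours and of Il18 in DSS rats (-0.97, adjusted p = 0.191) were lost, as were those of Il1rn, Il1r2 and Il18 in normal colon and all 4 differences of DSS effects, of which that of Il1rn was -0.83. Among the pathway genes, the calls of Il1rap, Nfkbiz, Nfkb1, Capn2, Casp8, Casp1 and Nlrp3 in untreated tumours and of Casp1 in DSS rats (-0.66) were lost with it, and those of Cxcl1, Cxcl2, Cxcl3, Cxcl6, Ccl20 and Pycard in untreated tumours were kept. Also lost were those of Il36rn, Il36b and Nfkbiz in DSS normal colon and of Il36b in DSS rats. For the difference of DSS effects, Cxcl1 (adjusted p = 0.0641), Cxcl6 (0.0974) and Icam1 (0.381) lost their calls, and Cxcl2 and Cxcl3 kept them. Of the colonic epithelial, stromal, neutrophil and macrophage markers in untreated tumours, Tff3, Aqp8, Slc26a3, Dcn, Des, S100a8, S100a9, Camp, Lyz2 and Adgre1 kept their calls. Krt20, Car4, Cdx2, Col1a1, Col1a2, Col3a1, Mmp8, Csf3r, C1qa, C1qb, C1qc, Cd68 and Msr1 lost them. In DSS rats Tff3 kept its call, and Aqp8, Car4, Slc26a3, Krt20, Krt14 and Krt15 lost theirs. In DSS normal colon Krt13, Dsg3 and Cd68 did.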

How the data were processed

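Colon RNA of 20 samples of rat and tissue was measured on 24 2-colour arrays, sample in Cy3 and wild-type pool in Cy5, without dye swap, per the labels. No pair of arrays correlated below 0 (0.305 to 0.97 over 276 pairs). Per the file headers, Feature Extraction 9.1.3.1 wrote the deposited spot values, in units of intensity. The authors' deposited log10 ratio, red over green, was not used for the results. The submitters' processing notes also name Partek, without a role.

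Mean signals were background-corrected (normexp, offset 50) and loess-normalized within arrays with limma 3.58.1 (R 4.3.3, statmod 1.5.0, version 1.17.8 of data.table). Control spots had weight 0, non-uniform spots were left out, and repeat arrays of a rat and tissue were averaged (normal colon of rats 2, 3 and 6, tumour of rat 6). Probes needed a Cy3 signal well above background on 5 of 24 arrays, and the brightest probe stood for a gene. Second probes were read from a fit with every probe past the filter as a feature. This left 26653 features, 13385 with a symbol, and 0.0741% of values were missing. Of the 41012 probes, 12082 took their name from an accession, 5171 from a current symbol and 3445 from an older one, while 20314 stayed as in the file. The Il33 probes carry an older name in the files.

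limma fitted 1 mean per group to 20 samples (16 residual and 2.24 prior degrees of freedom), with two-sided moderated tests. A feature was called at p under 0.05 after Benjamini-Hochberg adjustment across the whole table. The fit was checked on simulated data. Rats were replicates. Same-rat samples deviated together (r 0.0784 to 0.568, over 0.1 in 9 of 10 rats), and tumour and normal colon share the rat by design. Alternatives were other background, normalization and filter settings, rat, slide and scan day as blocks, each slide batch alone and each rat left out, the last also for list genes. All members are named, then the 3 list genes with the smallest p among those called, and the 3 genes most similar to each member, of which 1 is not reported here. The members and lists were chosen with earlier results of these data known.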

Additional observations from a re-analysis of the deposited data

Results flagged for a closer look

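The effect of DSS differed between tumours and normal colon, by the test of that difference itself, in 5 of the 13 member probes tested. Of all 26653 features, 2.5% were called in that test. The 5 probes stand for 4 genes, since the 2 Il1b probes gave nearly the same pattern (r = 0.991). The calls of these 4 genes were lost with median centring and in slide batch 2 alone. The values, as the DSS effect in tumours minus that in normal colon on the log2 scale, were -3.68 and -2.47 for the 2 Il1b probes, -3.31 for Il1a, -2.08 for Il1r2 and -1.76 for the brighter Il1rn probe. In each of them DSS normal colon lay above untreated normal colon, while DSS and untreated tumours overlapped.

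Of 52 groups of 5 rats examined, 2 held a sample far from the other 4, and chance gives about 1 in 20 groups. The second Il1b probe read 3.47 in the tumour of DSS rat 5, against 2.62 to 2.77 in the other DSS tumours. The brighter Il33 probe read -0.0519 in the tumour of DSS rat 9, one of the arrays of raised signal, against 0.24 to 0.34 in the others.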

How the results depend on the processing

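Of the counts of called members under each alternative, 119 stayed within 1.5 times the values given above, and no called change reversed its sign. In DSS rats, tumour against normal colon had 1 called member. It had 2 with the scanner's processed signals, with slide batch as a block, with scan day as a block and in slide batch 1 alone, and 0 with median centring and in slide batch 2 alone. In normal colon, DSS against untreated had 5, but 2 with median centring and 0 in slide batch 2 alone. For the difference of DSS effects there were 4, and 0 with median centring and in slide batch 2 alone. The additional member was Il1rl1, except in slide batch 1 alone, where it was Il18bp (-0.39, adjusted p = 0.0491). With each rat left out in turn, the count was 5 to 6 between untreated tumours and untreated normal colon, 1 to 1 between tumour and normal colon of DSS rats, 4 to 5 for DSS against untreated normal colon, 0 to 0 between the tumour groups and 3 to 4 for the difference of DSS effects. Tumour and normal colon are paired by rat, and with the rat as a replicate block the count in DSS rats was 2, Il1rl1 being added (adjusted p = 0.0447). The block changed no other member count by over 1.5 times.

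Over all features, the counts were 4795 between untreated tumours and untreated normal colon, 2024 between tumour and normal colon of DSS rats, 1929 for DSS against untreated normal colon, 0 between tumour groups and 666 for the difference of DSS effects. With median centring they were 918, 665, 366 and 191 in the 4 comparisons with calls. With the rat as a replicate block, DSS rats gave 3305 and the difference of DSS effects 1673. Slide batch, scan day or slide as a block gave 3045 to 3607 in normal colon and 1345 to 1428 for the difference of DSS effects, and slide batch and scan day gave 3242 and 3084 in DSS rats. In slide batch 1 alone, normal colon gave 3136 and the difference of DSS effects 422. In slide batch 2 alone, they were 2457, 111, 2 and 3, from 2 rats a group. Between the tumour groups, scan day as a block gave 63, slide as a block 4 and the scanner's processed signals 1. Without arrays of raised signal the difference of DSS effects gave 314. With each rat left out in turn the counts were 2642 to 5192, 1099 to 2094, 1205 to 2220, 0 to 3 and 319 to 803, in the order of comparisons above. The cause of these shifts was not tested. Signal over background limits Il1r1, the second Il1rl1 probe and the lower end of Il1rl1.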
